A study of Mus musculus with 7 samples.

Results

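Core clock genes and nocturnin were described in the fasted liver of WT and SHIVA mice. The set holds 10 genes of the 36492 gene names on the array: the activators Arntl and Npas2, the repressors Per1, Per2, Per3 and Cry1, the nuclear receptors Nr1d1 and Nr1d2, the output factor Dbp, and Ccrn4l, the array's name for nocturnin, now called Noct. Members were every probe for test samples, controls left out, whose gene name in the array files was one of these, which gave 11 probes, with a pair of probes for Dbp and 1 probe for each of the other 9 genes. The genes were chosen by measured WT and SHIVA signals of these same arrays, since results of this contrast were known when the set was drawn up, so every difference of theirs between WT and SHIVA is given as a description and no test is read from it.

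Liver RNA came from 3 WT and 4 SHIVA mice, each on an Agilent 1-colour array of its own. All were female C57BL/6 mice of 8 to 12 weeks that had been fasted for 24 h, so no fed liver stands beside them. SHIVA mice carry a chemically induced point mutation in Sox17, a transcription factor of endoderm and endothelium, which changes a residue of its DNA-binding HMG domain; viable carriers are heterozygous, and the mutation is present in every cell of the body. WT controls were matched for age and weight and kept in the same room. The hour at which livers were taken is not given in the sources used here. Any part of that hour in the differences between the genotypes was not tested.

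The circadian clock of the liver is a loop of transcription. The pair of BMAL1, made from Arntl, and CLOCK or NPAS2 binds E-boxes and switches on Per, Cry, Nr1d1, Nr1d2 and Dbp, and PER and CRY proteins then block that pair. REV-ERBα and REV-ERBβ, made from Nr1d1 and Nr1d2, repress Arntl and Npas2 through ROR elements, while DBP binds D-boxes, so Arntl transcripts peak at the opposite time of day to those of Dbp and Nr1d1. Nocturnin is an enzyme whose transcript is strongly rhythmic in liver; it was first described as a deadenylase and later as a phosphatase that acts on NADP(H), and mice without it resist diet-induced fat accumulation.

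The promoters below are shown because they carry the elements through which this loop runs, or belong to the genes with the largest differences. Each is the RefSeq window of GRCm38.p6 from 250 bases before to 50 bases from a transcript start on, 5′ to 3′ on the gene's strand, with an exact match to an E-box (CACGTG), a D-box (TTATGTAA or TTACGTAA) or the core of a ROR element (TAGGTCA), on either strand, in capitals. The windows of Ccrn4l, chr3:51224197-51224496 on the plus strand, and of Nr1d1, chr11:98775328-98775627 on the minus strand, hold none of these letters. That of the first Per1 start, chr11:69098699-69098998 on the plus strand, holds an E-box, and that of the second Arntl start, chr7:113207261-113207560 on the plus strand, holds a ROR core.
Ccrn4l: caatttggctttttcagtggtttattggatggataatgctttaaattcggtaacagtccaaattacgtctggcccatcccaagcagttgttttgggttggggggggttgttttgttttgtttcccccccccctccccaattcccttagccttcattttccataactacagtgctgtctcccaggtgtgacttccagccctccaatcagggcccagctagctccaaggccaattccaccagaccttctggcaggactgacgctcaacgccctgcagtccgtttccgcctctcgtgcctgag
Nr1d1: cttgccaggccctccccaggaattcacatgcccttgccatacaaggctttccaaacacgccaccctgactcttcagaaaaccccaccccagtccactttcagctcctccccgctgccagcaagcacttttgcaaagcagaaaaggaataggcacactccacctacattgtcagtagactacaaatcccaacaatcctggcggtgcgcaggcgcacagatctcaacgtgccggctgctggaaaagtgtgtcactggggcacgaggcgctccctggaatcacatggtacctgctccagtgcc
Per1: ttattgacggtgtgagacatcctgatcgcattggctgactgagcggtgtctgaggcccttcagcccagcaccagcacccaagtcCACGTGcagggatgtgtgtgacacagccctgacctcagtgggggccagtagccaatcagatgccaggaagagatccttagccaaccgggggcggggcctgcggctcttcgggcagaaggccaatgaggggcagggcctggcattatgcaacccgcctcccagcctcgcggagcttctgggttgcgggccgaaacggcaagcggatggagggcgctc
Arntl: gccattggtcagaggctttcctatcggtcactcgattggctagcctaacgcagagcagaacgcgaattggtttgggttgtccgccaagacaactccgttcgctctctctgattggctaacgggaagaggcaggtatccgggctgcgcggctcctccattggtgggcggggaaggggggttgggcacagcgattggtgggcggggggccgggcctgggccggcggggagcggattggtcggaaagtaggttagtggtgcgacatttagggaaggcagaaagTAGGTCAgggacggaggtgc

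RefSeq windows were at hand for 9 of the 10 genes, all but Per2. E-boxes stood in 2 of the 9, Per1 and Cry1, where 8.09% of the 27025 genes in the table, and 7.15% of its 32851 windows, held one. The E-box of Per1 runs from 166 to 161 bases before the start and that of Cry1 from 60 to 55 bases before it. D-boxes were found in the window of Per3 alone, at 205 and 158 bases before the start as counted to their first base, and 1.23% of all genes (1.06% of windows) hold a D-box. The ROR core of Arntl lies 31 to 37 bases into the transcript of its second start, and 2.97% of all genes (2.61% of windows) hold that core. Neither Npas2, Dbp, Nr1d1, Nr1d2 nor Ccrn4l held any of these letters in its window. These are matches of letters in a short window and say nothing of binding there or elsewhere in the genes.

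**Figure D1:**
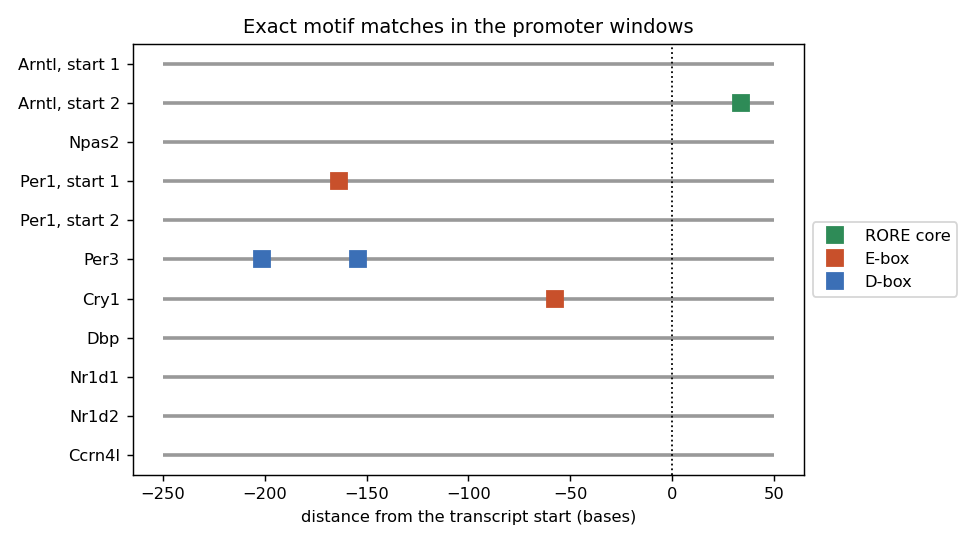
Exact motif matches in the promoter windows of 9 of the 10 genes, by distance from the transcript start in bases (dotted line: the start); genes with more than 1 start have a line for each. Matches are seen in Per1, Cry1, Per3 and the second start of Arntl, and the other windows are empty.

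The share of probes well above background ran from 44.5% to 48.7%, and 0 spots were saturated. Before normalisation the 75th percentile of log2 signal was 6.62, 6.57 and 6.66 in WT and 6.87, 6.89, 6.80 and 6.65 in SHIVA, higher in 3 SHIVA arrays than in any WT array; quantile normalisation removes this shift, and its part in any result was not tested. All 7 arrays lay on 1 slide, WT in row 1 and SHIVA in row 2, so place on the slide and genotype cannot be told apart. Hepatocyte markers were well above background on all arrays for 6 of 6 genes, and their summed signal was 839200 to 888400 in WT and 838900 to 899900 in SHIVA. Kupffer cell markers (5 of 5 higher in SHIVA, sums 8230 to 18280 in WT and 11240 to 20960 in SHIVA) and blood markers (3 of 3 higher, sums 48730 to 70880 and 60200 to 116600) gave sums that overlapped between the genotypes. Sums also overlapped for endothelium (15320 to 18470 in WT and 13000 to 15480 in SHIVA) and stellate cells (12590 to 14120 and 6426 to 13230). In both, SHIVA mice 1, 2 and 3 lay below every WT mouse and SHIVA mouse 4 did not. Bile duct (119 to 272 and 84.1 to 153) and lymphocytes (907 to 1031 and 815 to 1036) overlapped as well. Some single markers did not overlap by themselves: Hbb-b1 (0.65) and Alas2 (0.64) of blood, Ttr (-0.34) and Serpina1a (0.09) of hepatocytes, and Des (-0.22) of stellate cells. These are log2 differences, SHIVA minus WT, and none of these markers passed limma's test. For pancreas, 3 of 4 markers were above background on no array and the remaining one not on all. The part of these sums in any result was not tested, and in whole liver fewer cells of a type and less RNA per cell cannot be told apart. Sox17 itself differed by 0.70 ± 0.24 (log2, SE, n = 3 and 4; limma adjusted p = 0.270), with overlapping genotypes, and was well above background in 2 of 3 WT and 4 of 4 SHIVA mice. That value had a wide range over the alternatives, from 0.10 with normexp to 0.98 without WT mouse 1, and a second Sox17 probe gave 0.32 ± 0.18. Its probe does not read the point mutation, so it does not check the labels.

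Of the 10 genes, 8 were well above background on at least 3 arrays, the condition for testing, and Per3 and Cry1 were above background on none. Levels are given as quantile-normalised log2 signal; they compare mice within a gene and never 1 gene with another. Nr1d1 was lower and Ccrn4l higher in every SHIVA mouse than in every WT mouse, while Arntl, Npas2, Per1, Per2, Nr1d2 and Dbp overlapped between the genotypes. Among the 8 genes 2 passed limma's test at an adjusted p under 0.05, 1 in each direction, where 0.375% of the 20002 genes tested did so (0.185% higher and 0.19% lower in SHIVA). Groups without overlap were likewise 2 of 8, beside 12.2% of all genes tested (6.35% higher and 5.81% lower). These counts rest on the values that chose the genes and nothing is read from them. Over the 8 genes 4 were higher and 4 lower in SHIVA, and the median difference was 0.07, beside 4e-04 for all genes tested.

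**Figure D2:**
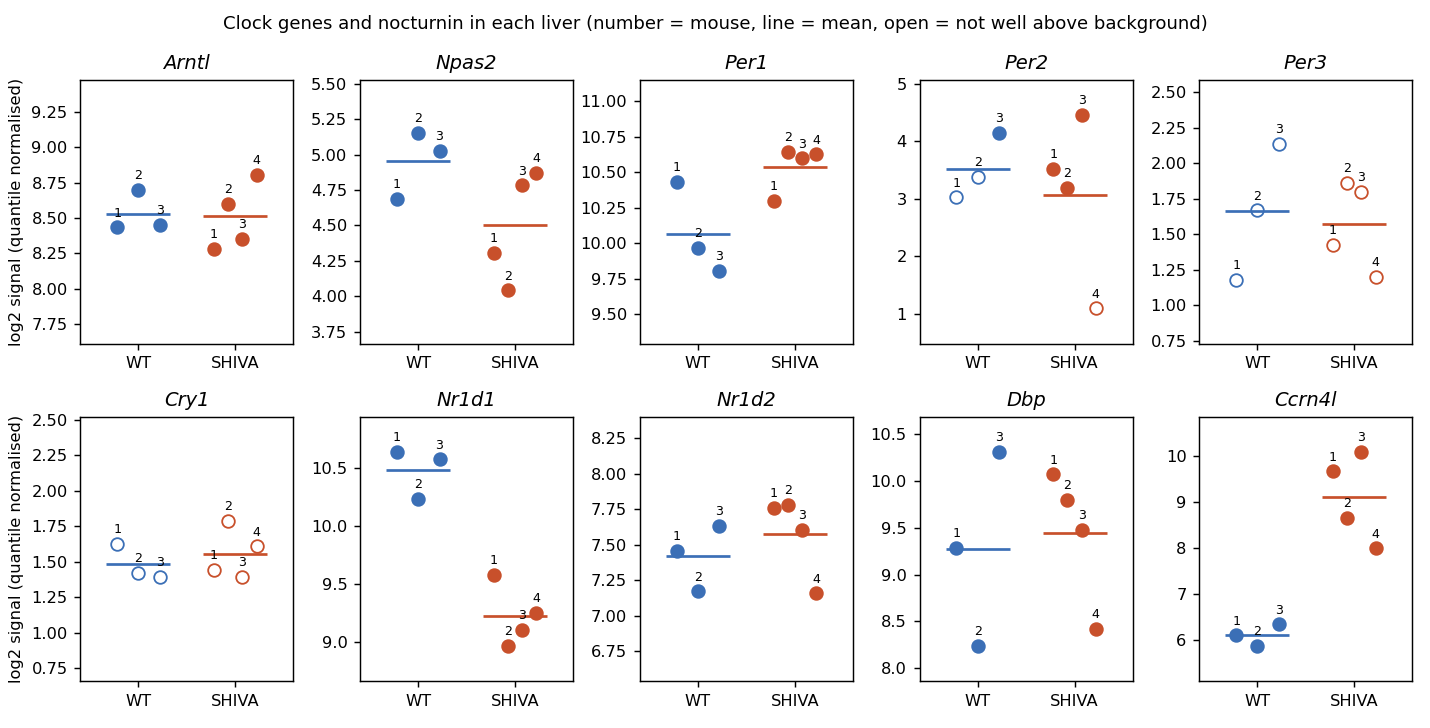
Quantile-normalised log2 signal of the 10 genes in each of 3 WT (blue) and 4 SHIVA (orange) livers, with the mouse number above each point, a line at the mean and open points where the probe was not well above background; each panel has its own axis. The genotypes separate for Nr1d1 and Ccrn4l, and Dbp is lowest in WT mouse 2 and SHIVA mouse 4.

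Arntl encodes BMAL1, the partner without which the liver clock stops. Its probe (mm9 chr7:120457261-120457320) gave 8.43, 8.70 and 8.45 in WT mice 1 to 3 and 8.28, 8.60, 8.36 and 8.81 in SHIVA mice 1 to 4. The genotypes overlapped throughout, with the highest value in SHIVA mouse 4 and the lowest in SHIVA mouse 1. The difference was -0.01 ± 0.17 (log2, SE), with a 95% interval from -0.41 to 0.38.

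Npas2 encodes a partner of BMAL1 that can stand in for CLOCK. Its values were 4.69, 5.15 and 5.03 in WT and 4.31, 4.04, 4.78 and 4.87 in SHIVA. SHIVA mice 1 and 2 lay below all WT mice and the other 2 among them. The difference was -0.45 ± 0.23, with an interval from -0.99 to 0.08.

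Per1, a repressor that is also switched on directly by glucocorticoids and other systemic signals, gave 10.43, 9.97 and 9.81 in WT and 10.30, 10.64, 10.60 and 10.63 in SHIVA. SHIVA mice 2, 3 and 4 lay close together and above all WT mice, while SHIVA mouse 1 lay below WT mouse 1. The difference was 0.47 ± 0.19, with an interval from 0.05 to 0.90 that is not adjusted for the number of genes.

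Per2, which works beside PER1, was near the limit of detection: its probe was well above background in 1 of 3 WT and 3 of 4 SHIVA mice. Its values were 3.02, 3.38 and 4.15 in WT and 3.52, 3.19, 4.46 and 1.09 in SHIVA. The lowest, in SHIVA mouse 4, was not above background, and the difference of -0.45 ± 0.69 has an interval from -2.02 to 1.12. Per3 and Cry1, the other repressors of the set, were not well above background in any mouse, and no difference is given for them.

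Nr1d1 encodes REV-ERBα, the haem-binding repressor that links the clock to lipid and bile acid metabolism. The array reads it with a single probe of 60 bases that spans 503 bases of mm9 chr11:98630526-98631028 and so crosses an exon junction, with 1 reading frame free of stop codons; the probe is shown because the difference in Nr1d1 rests on it alone.
Nr1d1 probe: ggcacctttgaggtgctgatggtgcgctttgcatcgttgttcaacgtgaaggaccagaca
It gave 10.63, 10.23 and 10.57 in WT and 9.58, 8.97, 9.10 and 9.25 in SHIVA. Every SHIVA mouse lay below every WT mouse. The difference was -1.25 ± 0.19, with an interval from -1.68 to -0.82, which puts Nr1d1 2.38-fold lower in SHIVA and in place 128 from the lowest among the 20002 genes tested. The spread between mice was alike in the genotypes, with an SD of 0.22 in WT (n = 3) and 0.26 in SHIVA (n = 4).

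Nr1d2 encodes REV-ERBβ, which shares targets with REV-ERBα and is driven by the same E-box loop. It gave 7.45, 7.17 and 7.63 in WT and 7.76, 7.78, 7.60 and 7.16 in SHIVA. The range of WT lay within that of SHIVA. The difference was 0.16 ± 0.20, with an interval from -0.30 to 0.61. The contrast between Nr1d1 and Nr1d2 was itself not tested, and both genes were chosen with their differences known.

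Dbp encodes a PAR bZIP factor with one of the steepest daily rhythms in liver. Its brighter probe (mm9 chr7:52965322-52965381) gave 9.28, 8.24 and 10.31 in WT and 10.07, 9.80, 9.47 and 8.42 in SHIVA. WT mice alone ran from the lowest to the highest value of the set, and SHIVA mouse 4 was the next lowest. The difference was 0.16 ± 0.52, with an interval from -1.02 to 1.34. The second probe (mm9 chr7:52965461-52965520) gave 8.04, 7.57 and 9.34 in WT and 9.13, 8.84, 8.66 and 7.73 in SHIVA, a difference of 0.27 ± 0.45. Both probes put WT mouse 3 highest, WT mouse 2 lowest and SHIVA mouse 4 next to lowest, and their deviations from the genotype means had r = 0.98 over the 7 arrays, so the spread between mice did not depend on which probe was read.

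Ccrn4l, for nocturnin, was read by a probe at mm9 chr3:51055429-51055488 that was well above background in all 7 mice. It gave 6.11, 5.89 and 6.35 in WT and 9.67, 8.66, 10.08 and 8.00 in SHIVA. The lowest SHIVA mouse lay above the highest WT mouse. The difference was 2.99 ± 0.45, with an interval from 1.95 to 4.02, which puts Ccrn4l 7.94-fold higher in SHIVA and in place 9 from the highest among the genes tested. SHIVA mice were also more unlike each other, with an SD of 0.95 (n = 4) against 0.23 in WT (n = 3), a difference in spread that was not tested.

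**Figure D3:**
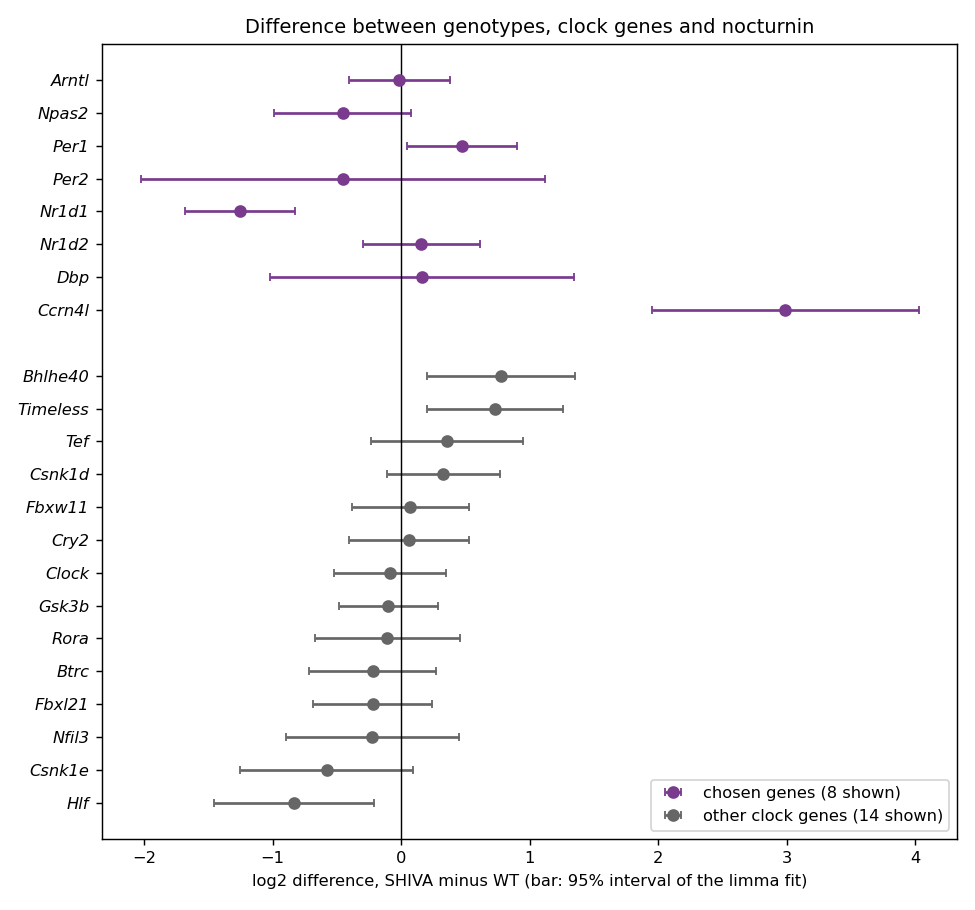
Log2 difference, SHIVA minus WT, of the 8 chosen genes above the filter (purple) and of 14 of the 16 other clock genes tested (grey), with the 95% interval of the limma fit, not adjusted for the number of genes. Ccrn4l and Nr1d1 lie farthest from 0, with opposite signs, and all the other chosen genes lie between -0.45 and 0.47.

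How the genes varied together was read from the deviation of each mouse from the mean of its own genotype, for the 7 genes above background on all arrays. This removes the difference between the genotypes, though results of the contrast also rest on the spread between mice. SHIVA mouse 4 was highest of its genotype in Arntl (0.29 above the mean) and Npas2 (0.37 above) and lowest in Dbp (-1.02), Nr1d2 (-0.42) and Ccrn4l (-1.10). WT mouse 2 showed the same arrangement within WT, highest in Arntl (0.17) and Npas2 (0.20) and lowest in Dbp (-1.04), Nr1d2 (-0.25), Nr1d1 (-0.25) and Ccrn4l (-0.23). Activators and output genes thus stood on opposite sides in these 2 mice, while Per1 and Nr1d1 of SHIVA mouse 4 stayed near their mean, at 0.09 and 0.02. The activators Arntl and Npas2 had r = 0.34 over the 7 mice, which became -0.54 without these 2. Npas2 had r = -0.05 with Ccrn4l, -0.54 with Dbp and -0.70 with Nr1d2. The arrangement is a description of these 2 mice.

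Over all 7 mice, the deviations of Dbp and Nr1d2 had r = 0.95 (rho = 0.89) and those of Arntl and Ccrn4l r = -0.91 (rho = -0.89). Without the 2 mice farthest from the median of the first gene, WT mouse 2 and SHIVA mouse 4 in each case, these became 0.84 and -0.84. In an exact two-sided permutation of the mice within genotypes, the 2 pairs had p = 0.0139 and p = 0.0417 for r and p = 0.0208 and p = 0.0833 for rho. The pair of Arntl and Dbp had r = -0.75 (rho = -0.57, exact permutation p = 0.0556 and 0.167), which came to -0.02 without the same 2 mice, so that relation rests on them. The 21 pairs of genes formed 1 family, of which 2 had an unadjusted exact p of r under 0.05 and 0 passed after Benjamini-Hochberg adjustment; the lowest adjusted values were 0.292 for r and 0.437 for rho, and 0.00694 is the smallest p that the 144 orders allow. The points share arrays, and the deviations of 7 mice from 2 means leave few independent values.

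**Figure D4:**
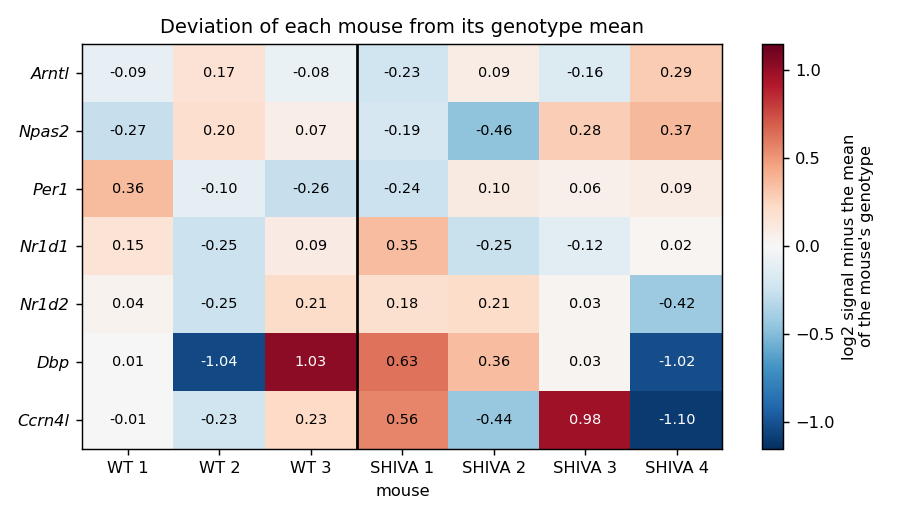
Deviation of each mouse's log2 signal from the mean of its genotype for the 7 genes above background on all arrays (red above, blue below; WT left of the line, SHIVA right). WT mouse 2 and SHIVA mouse 4 are above the mean in Arntl and Npas2 and below it in Nr1d2, Dbp and Ccrn4l.

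Among 19960 genes compared, the 5 whose deviations were most like those of Arntl over the 7 arrays were Amy1 (r = 0.996), the interval probe chr1:13058312-13099826_F (0.986), Mrgpre (0.986), 1700056E22Rik (0.983) and ENSMUST00000118575 (0.981). The 5 most like Dbp were Rasa4 (r = 0.997), Kcnk6 (0.996), AK020212 (0.992), Gm14548 (0.991) and Fblim1 (0.989). Values over 0.9 were reached by 179 genes for Arntl and 262 for Dbp, and no other chosen clock gene was among the 5 in either case. How many genes would reach such values by chance was not computed, so nothing is read from these counts or names.

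Of 18 further clock genes, 16 were tested and none passed at an adjusted p under 0.05; by unadjusted limma p under 0.05, 3 of 16 did, where 13.2% of all genes tested did so. There were 7 higher and 9 lower in SHIVA, with a median of -0.09. Genotypes did not overlap for 3 of 16, or 18.8%, beside 12.2% of all genes tested. Bhlhe41 and Ciart, both repressors, were not tested because their probes were not above background on enough arrays.

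Clock, the usual partner of BMAL1, differed by -0.09, and Rora, an activator that opposes REV-ERB proteins, by -0.11. Bhlhe40, encoding the E-box repressor DEC1, gave 8.80, 8.65 and 9.61 in WT and 9.60, 10.16, 9.67 and 9.76 in SHIVA, a difference of 0.78 ± 0.25 (limma adjusted p = 0.248). SHIVA mouse 1 lay just below WT mouse 3. Timeless, a protein of the replication fork named for a fly clock gene, differed by 0.73 ± 0.23 (limma adjusted p = 0.238), also with overlap.

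Hlf, a PAR bZIP factor that binds the same D-boxes as DBP, gave 9.37, 9.57 and 9.20 in WT and 8.78, 7.77, 8.80 and 8.84 in SHIVA. All SHIVA mice lay below all WT mice, and the difference of -0.83 ± 0.27 did not pass (limma adjusted p = 0.251). Its relative Tef differed by 0.36 and Nfil3, a repressor at D-boxes, by -0.22.

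The kinases and ligase subunits that mark PER and CRY for decay showed differences of -0.58 (Csnk1e), 0.33 (Csnk1d), -0.10 (Gsk3b), -0.22 (Fbxl21), -0.22 (Btrc) and 0.07 (Fbxw11). None passed the test. Probes of the same gene differed in 2 cases: Cry2, a repressor, was 0.06 by its brighter probe and -0.94 ± 0.25 by another without overlap, and Csnk1d was -0.41 ± 0.16 by its dimmer probe. The direction of these 2 genes is therefore not settled.

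Genes downstream of the clock and of the cues that set it were counted in 4 lists, in which none passed at an adjusted p under 0.05; limma's unadjusted p was under 0.05 for 2 of 12 clock-controlled liver genes, 3 of 8 PAR bZIP targets, 3 of 8 glucocorticoid targets and 1 of 6 temperature-responsive genes, beside 13.2% of all genes tested. Genotypes did not overlap for 1 of 12 (8.33%), 3 of 8 (37.5%), 1 of 8 (12.5%) and 0 of 6 genes of these lists, beside 12.2% of all genes tested. Of the clock-controlled liver genes 3 were higher and 9 lower, with a median of -0.17. The 2 with the largest differences were Cdkn1a, the cell cycle inhibitor p21, at -1.55 ± 0.51 (limma adjusted p = 0.249), and the tetraspanin Tspan4, at 0.67 ± 0.26 without overlap (limma adjusted p = 0.321). Cdkn1a gave 10.62, 10.97 and 8.92 in WT and 7.87, 8.37, 9.13 and 9.11 in SHIVA, so WT mouse 3 lay among the SHIVA mice.

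Targets of the PAR bZIP factors, the group that DBP, HLF and TEF drive in liver, were lower for 7 of 8 genes, with a median of -0.35. Nr1i3, the xenobiotic receptor CAR, gave 13.02, 13.13 and 13.07 in WT and 11.89, 12.15, 11.98 and 12.38 in SHIVA. All SHIVA mice were lower, and the difference of -0.97 ± 0.16 just missed the threshold (limma adjusted p = 0.0528), which it passed under 6 of 17 alternatives. Aldh3a2, a fatty aldehyde dehydrogenase, differed by -0.74 ± 0.18, also without overlap (limma adjusted p = 0.156).

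Glucocorticoids and body temperature are cues that reach the liver clock. Of 8 glucocorticoid targets 4 were higher and 4 lower, with a median of 0.12. Sgk1, a kinase induced by glucocorticoids, gave 9.13, 8.91 and 8.76 in WT and 10.03, 10.69, 9.84 and 9.96 in SHIVA. Its difference of 1.20 ± 0.22, without overlap, did not pass (limma adjusted p = 0.0760), and Zbtb16, another such target, differed in the opposite direction by -1.35 ± 0.50 (limma adjusted p = 0.289). Of 6 temperature-responsive genes 5 were higher and 1 lower, with a median of 0.09. The largest differences among them were in Dnajb1, a heat shock co-chaperone, at 0.47 ± 0.20 (limma adjusted p = 0.362), and Cirbp, induced by cold, at -0.40 ± 0.23 (limma adjusted p = 0.514).

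When single mice were left out, the difference of Ccrn4l stayed between 2.67 and 3.35 and that of Nr1d1 between -1.37 and -1.17. Per1 stayed between 0.34 and 0.65 and Npas2 between -0.59 and -0.30. Dbp ran from -0.35 without WT mouse 2 to 0.68 without WT mouse 3 and was also below 0 without SHIVA mouse 1, at -0.05, and Per2 ran from -0.91 to 0.21. Arntl lay on both sides of 0, between -0.11 and 0.07, and Nr1d2 between 0.03 and 0.29.

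**Figure D5:**
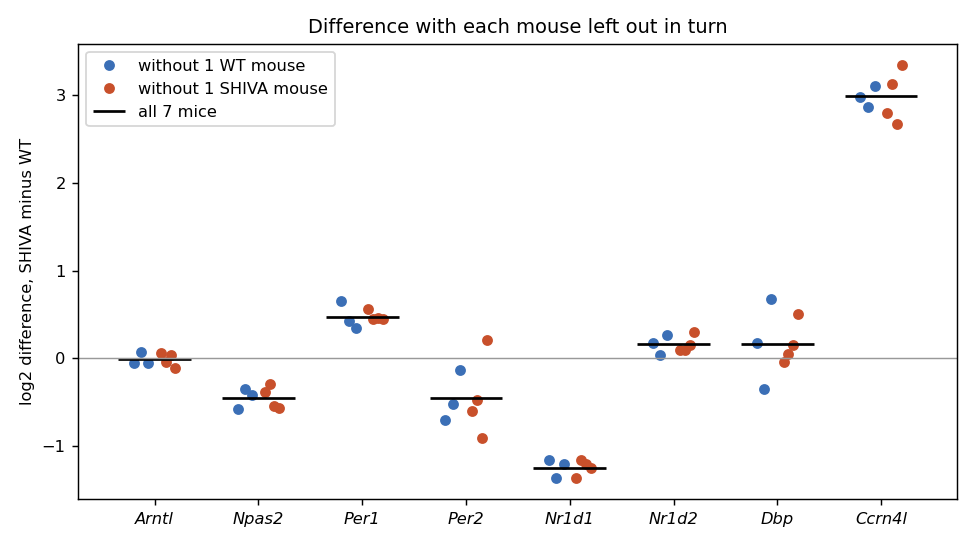
Log2 difference, SHIVA minus WT, of the 8 genes above the filter, with all 7 mice (line) and with each WT (blue) or SHIVA (orange) mouse omitted. Ccrn4l, Nr1d1, Per1, Npas2 and Nr1d2 keep their sign in all 7 cases, and Arntl, Dbp and Per2 cross 0.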

How the data were processed

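Per the labels, liver RNA was labelled with Cy3 and hybridised to 1-colour arrays, 1 per mouse. The authors deposited scanner intensities from Agilent Feature Extraction 10.5.1.1, not normalised between arrays, and a table of quantile-normalised log2 values. Here processed intensities of spots not marked as uneven or deviant were averaged per probe, quantile normalised and tested on the log2 scale in limma 3.58.1 (R 4.3.3), with the probe of highest mean signal for each gene and a probe well above background on at least 3 of 7 arrays. Calls were made at a Benjamini-Hochberg adjusted p under 0.05. Of the probes, 26413 took names from GRCm38.p6 and 29268 kept those of the files; probe positions are mm9. Members and lists were chosen with earlier results of these data known. Genes named are the members, the other clock genes (2 of them counted in their list but otherwise not reported here), the 2 largest differences of each output or cue list, the 5 most like Arntl and Dbp, and Sox17; the second probes of Cry2 and Csnk1d were added after their values were seen. Among the listed genes, 1 PAR bZIP target and 1 temperature-responsive gene had no probe under their names. Mice are taken as separate samples. Limma's p-values set a difference of genotype means against the spread between mice, which limma moderates across genes. The number of arrays limits the precision. Alternatives were other normalisations, backgrounds, filters, probes, weights, blocks and tests, and leaving out each mouse. The relations among members were computed after the data were seen. The steps were tested on simulated data.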

Additional observations from a re-analysis of the deposited data

Results flagged for a closer look

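Among the 59 tested genes of the members and the lists, the 4 SHIVA mice were searched for one that stood far from the other 3; groups of 3, such as WT, cannot be searched this way. Chance marks about 1 group in 20, or 2.95 of 59, and 5 were found. Per1 was 10.30 in SHIVA mouse 1, below 10.60 to 10.64 in the others, and it was the 1 of 8 members found. The other 4 were in SHIVA mouse 2: Hlf at 7.77 (others 8.78 to 8.84), Csnk1e at 6.72 (others 7.84 to 7.98), the aminotransferase gene Tat at 15.4 (others 15.9 to 16.0) and the metallothionein gene Mt1 at 17.1 (others 16.3 to 16.4). Tat and Mt1 belong to the glucocorticoid targets and were named after their values were seen. Without SHIVA mouse 2 the difference of Hlf was -0.57 and that of Csnk1e -0.29. Summed stellate cell markers were also lowest in SHIVA mouse 2, at 6426 against 10750 to 13230 in the other SHIVA mice, and their part in these values was not tested.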

How the results depend on the processing

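The 75 genes called across the array became 137 with the mean signal, 141 with the authors' table, 265 with array weights, 13 without a filter, 11 with the replicate block and 0 with the methods' t-test (2282 at an unadjusted p under 0.05, against 2640 by limma); leaving out mice gave 3 (without WT mouse 1) to 434 (without WT mouse 3), with 7, 8 and 13 without SHIVA mouse 1, WT mouse 2 and SHIVA mouse 3. Of the calls 49.3% were higher in SHIVA, against 39.1% with normexp, 30.8% without a filter, 72.7% with the replicate block and 49.1% to 100% with mice left out. Members called fell from 2 to 1 with normexp (Nr1d1), array weights (Ccrn4l) and the replicate block (Ccrn4l), and to 0 without a filter and by the t-test. They ranged from 0 to 2 with mice left out: both without WT mouse 3, Ccrn4l alone without SHIVA mouse 4, and 0 without any of the other 5. Members without overlap ranged from 2 to 4, the 4 without WT mouse 1. Other clock genes called ranged from 0 to 1 with mice left out, the 1 being Bhlhe40 (1.07) without WT mouse 3. Output and cue genes called rose from 0 to 2 with the mean signal, the authors' table and array weights (Nr1i3 and Sgk1), to 1 with normexp and a filter on all arrays (Nr1i3), and ranged from 0 to 3 with mice left out, the 3 being Nr1i3, Cdkn1a (-2.18) and Tsc22d3 (1.41) without WT mouse 3. Scaling to the 75th percentile kept 3 of the 5 genes most like Arntl and 3 of those most like Dbp. Nr1d1 ran from -1.37 to -1.03 and Ccrn4l from 2.30 to 3.41 over 17 alternatives. Same-numbered mice had correlations of deviations of -0.05, 0.01 and 0.24, and mice with unlike numbers from -0.20 to 0.20. Same-numbered mice also shared a column of the slide. These few values cannot decide whether the numbers pair the mice. The causes were not tested. With 3 and 4 arrays, adjusted p-values near the threshold cross it with small changes.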
